A study of Rattus norvegicus with 6 samples.

Results

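Colony-stimulating factors are secreted proteins that drive the survival, growth and maturation of macrophages, neutrophils and their precursors. The genes described here are the ligands Csf1, Il34, Csf2 and Csf3 and the receptor genes Csf1r, Csf2ra, Csf2rb and Csf3r. They were taken by gene name from a table of read counts, and 8 of its 30562 genes are members. The counts came from bulk RNA of rat intervertebral discs in 6 libraries, 3 of a Control group and 3 labelled AF-PTK@LEV@SPP1. All rats carried the WT genotype by the records. By the study's methods they were 12-week-old male Sprague-Dawley rats that had a needle puncture of a tail disc, in both groups, with 3 separate animals per group. AF-PTK@LEV@SPP1 is a vesicle made of liposomes fused with bacterial extracellular vesicles, with a peptide that binds annulus fibrosus cells on a thioketal linker that reactive oxygen species cleave. It carries an siRNA against Spp1 and was injected into the disc from 24 h after surgery, as 10 μL with siRNA at 1 mg/kg. The Control discs received PBS by the methods and no treatment by the sample records. For time, the records give a treatment of 14 days, while the study text gives 8 weeks for the cohort that supplied the discs. The records also name macrophages sorted for F4/80 and CD11b, from mice, where the methods name whole disc tissue of rats.

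The libraries held 17942989, 16565291 and 17489851 counts in Control replicates 1, 2 and 3. Those labelled AF-PTK@LEV@SPP1 held 17074981, 15560728 and 17855184. Levels are given as normalized CPM, which are counts scaled to a common library size. At this depth 3 counts in a library stood at 0.154 to 0.193 CPM, taken as the smallest measurable level, which covers counting error alone. CPM are not divided by transcript length, so levels were compared between groups for the same gene and not between genes.

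Control replicates 2 and 3 stood apart from every other pair. Among 14393 genes that reached 20 counts over both, the scatter was 1.33 times that of counting noise, and a Benjamini-Hochberg adjusted test separated 16 of them (0.111%). Other library pairs of the same group had a scatter of 51.3 to 107 times counting noise, with 39.5% to 56.6% of genes separated. These 2 libraries thus differed by little more than sampling noise and were counted as 1 sample, which left n = 2 distinct Control samples and n = 3 labelled AF-PTK@LEV@SPP1. With 2 against 3 samples, a two-sided exact permutation test cannot give a p under 0.1.

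Spp1, which encodes osteopontin and is the target of the siRNA, was read before the members. It stood at 8122.5, 4411 and 4417 CPM in Control replicates 1, 2 and 3, and at 8054, 6903 and 8461 CPM in replicates 1, 2 and 3 labelled AF-PTK@LEV@SPP1. The log2 fold change over Control, from the quasi-likelihood test in edgeR, was 0.31 with a standard error of 0.37 (adjusted p = 0.628). The target was thus not lower on average under the AF-PTK@LEV@SPP1 label. These libraries are called the libraries labelled as treated below, and every direction is relative to that label.

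Markers of disc tissue were abundant in all 6 libraries. The summed level of 14 disc markers was 71683, 103358 and 104094 CPM in Control and 155166, 108841 and 141906 CPM in the libraries labelled as treated, with Col1a1 the most abundant. The 14 macrophage markers summed to 3030, 2080 and 2062 CPM in Control and to 662, 1955 and 1967 CPM in the libraries labelled as treated. Adgre1, which encodes F4/80, and Itgam, which encodes CD11b, were at 15.3 to 42.9 CPM and, outside Control replicate 1 where Itgam was higher, at 15.2 to 71.0 CPM. The sorted cells named in the sample records therefore stand beside a large amount of disc matrix RNA, and the libraries are described here as disc RNA.

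CSF1 (M-CSF) and IL-34 are separate ligands of the same receptor, CSF1R, a receptor tyrosine kinase on monocytes, macrophages and osteoclast precursors. GM-CSF, the product of Csf2, binds a receptor made of a ligand-specific alpha chain (Csf2ra) and a beta chain (Csf2rb), and in rats the beta chain also serves IL-3 and IL-5. G-CSF, the product of Csf3, acts through CSF3R on neutrophils and their precursors. Csf2 and Csf3 are induced in fibroblasts, endothelial cells and macrophages by inflammatory cytokines, while Csf1 is made by many stromal cells without such a stimulus. In bulk tissue RNA, fewer cells of a type and less RNA per cell cannot be told apart.

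Both groups were compared with edgeR's quasi-likelihood test over 15537 genes that passed a filter on low counts, all 8 members among them, with the near-identical Control libraries summed. Genes were called at an adjusted p under 0.05, and 575 were called. In the libraries labelled as treated 175 of the genes tested (1.13%) were higher, and 400 (2.57%) were lower. None of the 8 members was called by edgeR. At an unadjusted p under 0.05, 5 of the 8 members passed in the same test (Csf1, Csf1r, Csf2, Csf2rb and Csf3), all with negative fold changes, beside 13% of all genes tested that passed with a negative fold change. In these 5 genes every library labelled as treated lay below every Control library, which held for 20.1% of the genes tested. Csf2 and Csf3 had at most 2 counts in each library labelled as treated and passed the filter through Control alone, so their direction was set by the filter, and neither count of 5 is support for a shared direction. No member lay above every Control library in all libraries labelled as treated, against 21.8% of the genes tested. With the 6 libraries kept as separate samples, edgeR called 1 of the 7 members tested (Csf3), beside 9.93% of genes called lower, and Csf2 did not pass the filter. DESeq2 on the 5 distinct samples called 3 members lower (Csf1r, Csf2rb and Csf3), beside 9.27% of genes. The number of genes called by edgeR fell to 113 without replicate 1 of the libraries labelled as treated, to 0 without replicate 2, to 0 without replicate 3, and to 280 without Control replicate 1. No member was called in any of these fits, and each gene called by edgeR on the 5 distinct samples was lost without replicate 2 and without replicate 3 labelled as treated.

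**Figure D1:**
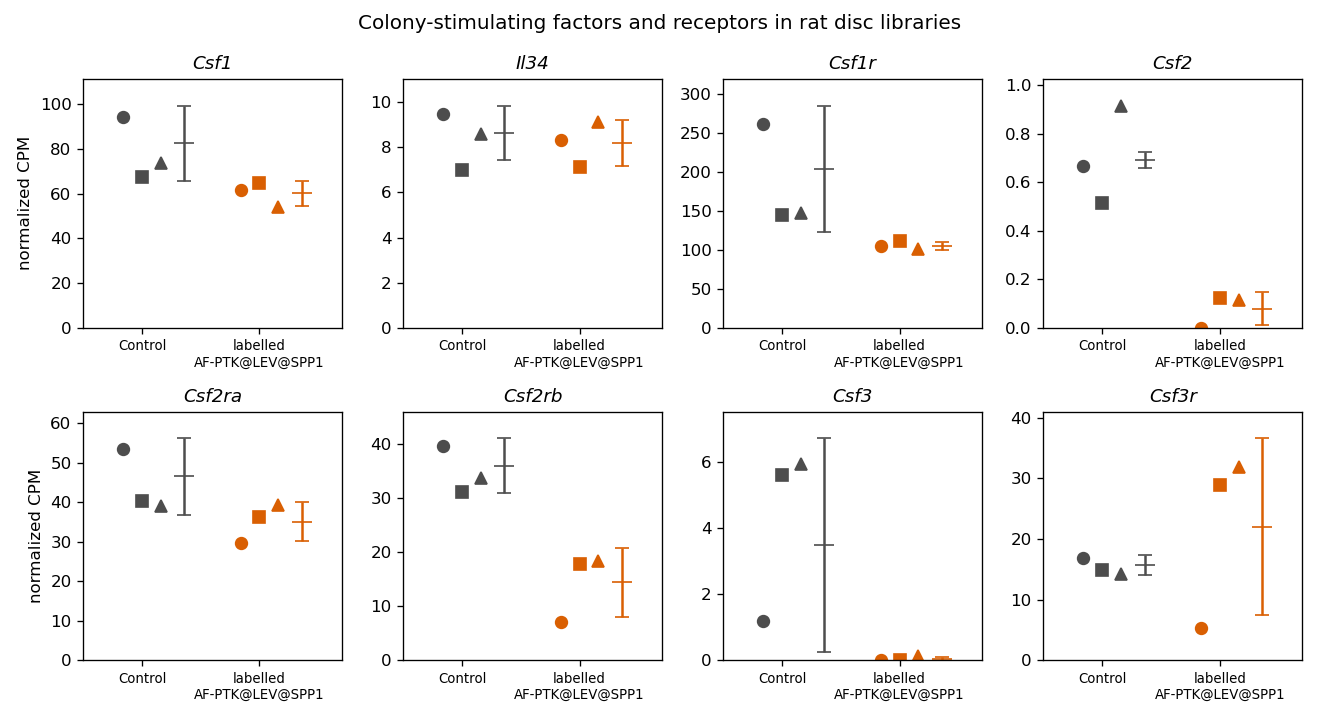
Normalized CPM of the 8 members (vertical axes, each from 0) in each library, with circles, squares and triangles for replicates 1, 2 and 3, Control in grey and libraries labelled AF-PTK@LEV@SPP1 in orange. Horizontal bars are means and error bars SD over distinct samples (n = 2 and n = 3). The groups do not overlap for Csf1, Csf1r, Csf2, Csf2rb and Csf3, and they overlap for Il34, Csf2ra and Csf3r.

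Csf1 lies on chromosome 2 from 195377215 to 195411704 on the minus strand by the annotation in the table, for which no build is given. Its level was 94.4, 67.4 and 73.6 CPM in Control replicates 1, 2 and 3 and 61.8, 64.7 and 53.9 CPM in the libraries labelled as treated. Control replicate 1 was the highest, and the groups did not overlap. Their means were 82.4 ± 16.9 CPM (SD, n = 2 distinct samples) and 60.1 ± 5.60 CPM (SD, n = 3). The log2 fold change of -0.46 (standard error 0.16) was not called by edgeR (adjusted p = 0.168), and the exact permutation test gave p = 0.1, the smallest possible. Without Control replicate 1 it was -0.25. This growth factor keeps macrophages alive and, with RANKL, allows osteoclasts to form.

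Il34, the other ligand of Csf1r, lies on chromosome 19 from 38714991 to 38764000 on the minus strand. Its level was 9.50, 7.01 and 8.61 CPM in Control and 8.35, 7.12 and 9.12 CPM in the libraries labelled as treated. The groups overlapped throughout this range. The log2 fold change was -0.09, with a 95% interval of -0.58 to 0.41 (edgeR adjusted p = 0.810), and the sign turned, to 0.049 without Control replicate 1 and to 0.0092 without replicate 2 of the libraries labelled as treated. A gene on the plus strand, AABR07058423.3, overlaps the span of Il34 and had 1 count over all libraries.

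The balance of both ligands was read within each library as the log2 ratio of Il34 to Csf1 reads, which does not depend on library scaling. It was -3.30, -3.24 and -3.08 in Control and -2.87, -3.16 and -2.55 in the libraries labelled as treated. Replicate 2 of the latter lay among the Control values. The difference of means was 0.37 (two-sided exact permutation test, p = 0.3, adjusted p = 0.4 over the 3 ratios computed), so a shift between the ligands was not separated from the spread between samples. The difference was 0.21 without replicate 3 labelled as treated and 0.52 without replicate 2.

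Csf1r, on chromosome 18 from 54546659 to 54590415 on the plus strand, encodes the receptor for both of these ligands. It stood at 262, 145 and 148 CPM in Control replicates 1, 2 and 3, and at 104, 111 and 101 CPM in the libraries labelled as treated. The libraries labelled as treated lay close together and below every Control library, while Control replicate 1 was far above the near-identical pair. Means were 204 ± 81.4 CPM (SD, n = 2 distinct samples) against 105 ± 5.17 CPM (SD, n = 3). This gave a log2 fold change of -0.96 (standard error 0.25, edgeR adjusted p = 0.102, exact permutation p = 0.1). It was -0.49 without Control replicate 1, and DESeq2 gave -0.98 with an adjusted p of 0.00912, within a range of 0.00912 to 0.271 over the 16 alternatives run.

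Macrophage and osteoclast markers, which mark cells that carry CSF1R, were read beside it. Of the 14 macrophage markers, 3 were called lower by edgeR and none higher, with a median log2 fold change of -0.77 against 0.05 over all genes tested. They were Ms4a7, Cd68 and Cd14, at -2.33, -1.97 and -1.89 on the log2 scale (edgeR adjusted p = 0.0196, 0.0231 and 0.0119). Of all genes tested 2.57% were called lower, the share to read beside this count and those of the lists below. Cd163 alone of the 14 went the other way (log2 fold change 1.15, edgeR adjusted p = 0.246). It was at 54.0, 29.5 and 29.0 CPM in Control and 47.2, 143 and 88.3 CPM in the libraries labelled as treated. Cd14, the co-receptor for lipopolysaccharide on monocytes, fell from 143 ± 12.7 CPM (SD, n = 2 distinct samples) to 38.6 ± 2.70 CPM (SD, n = 3). The most abundant marker, Lyz2, was at 1833, 1267 and 1247 CPM in Control and 272, 1243 and 1401 CPM in the libraries labelled as treated, where replicate 1 was the low one. None of the 14 was at 0 in all libraries. The part of these markers in the Csf1r values was not tested.

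Of 10 osteoclast markers tested, 4 were called lower by edgeR and none higher, with a median log2 fold change of -2.01, and 7 were called lower with the 6 libraries kept. Dcstamp, needed for the fusion of osteoclast precursors, fell from 31.6 ± 4.38 CPM (SD, n = 2 distinct samples) to 3.14 ± 0.613 CPM (SD, n = 3), with a log2 fold change of -3.34 (edgeR adjusted p = 0.0119). Ctsk, which encodes the collagen-cleaving protease cathepsin K and was the most abundant of the list, had one of -2.93 (adjusted p = 0.0306), and Atp6v0d2 and Acp5 had -2.72 and -2.02 (adjusted p = 0.0444 and 0.0381 from edgeR). Summed over the list, the level was 5622, 3557 and 3565 CPM in Control and 924, 853 and 560 CPM in the libraries labelled as treated. As with Csf1r, Control replicate 1 was the highest library, and the 3 libraries labelled as treated were the lowest. Whether this list accounts for any of the Csf1r values was not tested.

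**Figure D2:**
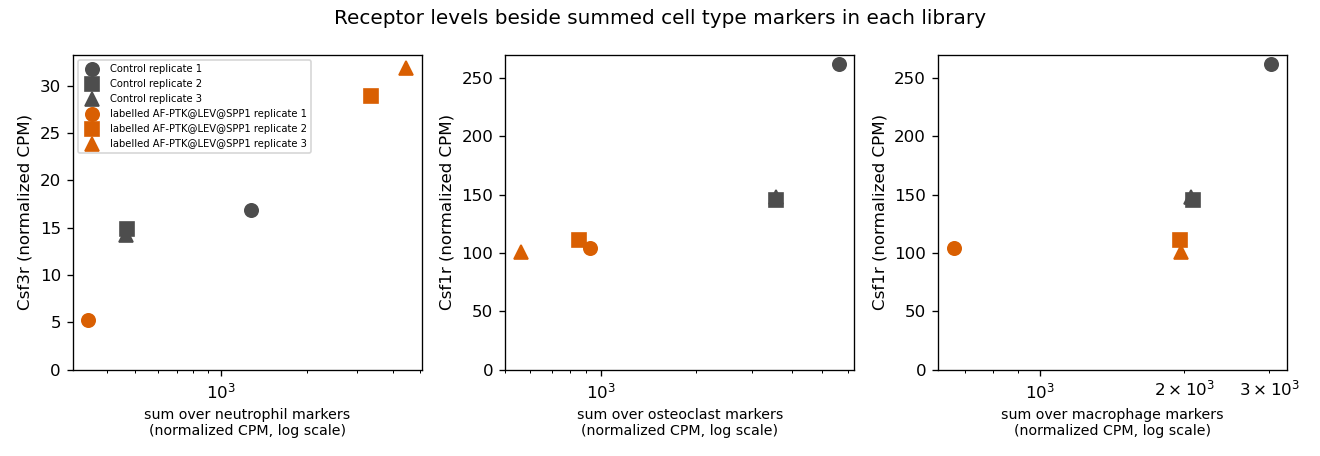
Level of a receptor gene (vertical axes, normalized CPM from 0) against the summed level of a marker list (horizontal axes, normalized CPM on a log scale) in each of the 6 libraries, Control in grey and libraries labelled AF-PTK@LEV@SPP1 in orange. Csf3r and the neutrophil sum are both highest in replicate 3 labelled AF-PTK@LEV@SPP1, at 31.9 and 4461 CPM, and both lowest in replicate 1, at 5.23 and 343 CPM, where the place of the sum rests on 1 gene, Lcn2. Csf1r and the osteoclast and macrophage sums are highest in Control replicate 1.

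Csf2, on chromosome 10 from 38386945 to 38389199 on the minus strand, was near the detection limit. It had 13, 8 and 15 counts in Control replicates 1, 2 and 3 and 0, 2 and 2 counts in the libraries labelled as treated. These counts correspond to 0.668, 0.515 and 0.916 CPM against 0, 0.121 and 0.114 CPM. Every Control library was above 3 counts and every library labelled as treated was below. Over pooled counts, 36 in Control against 4, the depth-adjusted ratio of Control to the libraries labelled as treated was 8.95, with a 95% interval of 3.21 to 34.6 for counting error alone. The fitted log2 fold change of -3.07 (standard error 0.81, edgeR adjusted p = 0.102) depends on the prior count at these levels.

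The alpha chain of its receptor, Csf2ra, lies on chromosome 14 from 89172 to 103128 on the minus strand. It stood at 53.4, 40.3 and 39.1 CPM in Control and 29.8, 36.3 and 39.3 CPM in the libraries labelled as treated. Replicate 3 labelled as treated lay just above Control replicate 3, so the groups overlapped. In log2 units the fold change was -0.41 (standard error 0.19, edgeR adjusted p = 0.235, exact permutation p = 0.2) and -0.19 without Control replicate 1. The gene Ppp2r3b overlaps its span on the same strand, so reads could have been shared, and held 24 counts in all libraries together against at least 506 for Csf2ra in each.

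Csf2rb, the signalling beta chain, lies on chromosome 7 from 109886425 to 109904157 on the plus strand. It was at 39.7, 31.1 and 33.7 CPM in Control and at 7.11, 17.7 and 18.4 CPM in the libraries labelled as treated. The groups did not overlap, and replicate 1 labelled as treated was the lowest. Means were 36.0 ± 5.11 CPM (SD, n = 2 distinct samples) and 14.4 ± 6.34 CPM (SD, n = 3). The log2 fold change of -1.33 (standard error 0.41) had an adjusted p of 0.136 in edgeR, 0.0538 with the 6 libraries kept, and 0.0255 in DESeq2, within a range of 0.0255 to 0.310 over the 16 alternatives.

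The chains were set against each other as the log2 ratio of Csf2ra to Csf2rb reads. In Control it was 0.43, 0.37 and 0.21, and in the libraries labelled as treated 2.05, 1.03 and 1.09. Each library labelled as treated thus had more Csf2ra reads per Csf2rb read than any Control library. The difference of means was 1.03 (two-sided exact permutation test, p = 0.1, the smallest possible, adjusted p = 0.3 over the 3 ratios), and it was 0.70 to 1.21 with each library left out in turn. Transcript length enters this ratio as a constant and does not alter the difference between groups.

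Partners and relatives of these proteins did not pass the test. The table held 12 genes of the list, 9 were tested, and edgeR called none of them, with the near-identical pair summed or with the 6 libraries kept. Their median log2 fold change was 0.14. Il3 and Il5, whose products share the beta chain, had 0 counts in every library, which allows up to 0.154 to 0.193 CPM. Il3ra, the alpha chain for IL-3, was at 11.2 to 12.1 CPM in Control and 10.9 to 15.3 CPM in the libraries labelled as treated. Il5ra, found on eosinophils, had 6, 0 and 3 counts in Control and 3, 47 and 37 in the libraries labelled as treated, so replicates 2 and 3 of the latter were high (edgeR log2 fold change 3.13, adjusted p = 0.205). Sdc1 and Ptprz1 encode other cell-surface partners of IL-34. Sdc1 was the most abundant of the list, at 276, 341 and 344 CPM in Control and 206, 104 and 210 CPM in the libraries labelled as treated (edgeR adjusted p = 0.202), and the log2 fold change of Ptprz1 was -0.62 (adjusted p = 0.270).

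Csf3, on chromosome 10 from 83661207 to 83663603 on the plus strand, had the most negative fold change among the 8 members. It had 23, 87 and 97 counts in Control replicates 1, 2 and 3 and 0, 0 and 2 counts in the libraries labelled as treated. In CPM these are 1.18, 5.60 and 5.92 against 0, 0 and 0.114. Control replicate 1 was well below the near-identical pair, yet the groups did not overlap. From 207 pooled counts in Control and 2 in the others, the depth-adjusted ratio was 103, with a 95% interval of 28.1 to 856 for counting error alone. The fitted log2 fold change was -6.29 (standard error 1.22), a value that depends on the prior count, and its adjusted p in edgeR was 0.0603. It was -9.22 without replicate 3 labelled as treated, the one of the 3 with any Csf3 reads, -7.02 without Control replicate 1, and -4.70 with both near-identical Control libraries left out. Csf3 was called by DESeq2 (adjusted p = 3.60e-04) and by edgeR with the 6 libraries kept (adjusted p = 0.0144), where the near-identical pair counts as 2 samples. Of 15 alternatives 4 called it. In fits with at least 2 Control samples its adjusted p reached 0.198, in edgeR without replicate 3 labelled as treated. In the fit on the 5 distinct samples Csf3 passed the filter through Control alone, so the filter set its direction.

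Csf3r, the receptor for G-CSF, lies on chromosome 5 from 138301506 to 138317881 on the plus strand. In Control it varied little, at 16.9, 14.9 and 14.2 CPM, while the libraries labelled as treated held 5.23, 28.9 and 31.9 CPM. Replicate 1 labelled as treated was the lowest of the 6 libraries, and replicates 2 and 3 were the highest. Means were 15.7 ± 1.67 CPM (SD, n = 2 distinct samples) and 22.0 ± 14.6 CPM (SD, n = 3). The log2 fold change of 0.48 had a 95% interval of -1.37 to 2.33 (edgeR adjusted p = 0.712, exact permutation p = 1.0). Without replicate 1 labelled as treated it was 0.91 (adjusted p = 0.0740), and without replicate 3 it was 0.12.

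Neutrophil markers, like Csf3r, were highest in replicates 2 and 3 labelled as treated when summed. Their summed level was 1270, 469 and 463 CPM in Control and 343, 3350 and 4461 CPM in the libraries labelled as treated. S100a9, a calcium-binding protein of neutrophils and the most abundant of the list, was at 457, 85.0 and 78.3 CPM in Control and 107, 1060.5 and 1487 CPM in the libraries labelled as treated. Mpo, an enzyme of primary granules made in immature neutrophils, was at 32.2, 0.450 and 0.733 CPM in Control and 22.2, 140.6 and 188 CPM in the libraries labelled as treated. For S100a9 and Mpo, replicate 1 labelled as treated lay below Control replicate 1 but above Control replicates 2 and 3, whereas Csf3r was lowest in it. Cxcr2, a chemokine receptor of mature neutrophils, had the order of Csf3r, at 21.4, 12.03 and 10.9 CPM in Control and 8.06, 47.3 and 53.9 CPM in the libraries labelled as treated. Lcn2, which encodes lipocalin 2, differed from the rest of the list, at 25.8, 283 and 288 CPM in Control and 10.1, 83.4 and 108 CPM in the libraries labelled as treated. The low place of replicate 1 labelled as treated in the sum rests on Lcn2. Of the 14 markers 13 were tested, none was called by edgeR with the pair summed or with the 6 libraries kept, and the median log2 fold change was 2.00. Ltf had 1 count, in Control replicate 1. The part of these markers in the Csf3r values was not tested.

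The granulocyte receptor was also set against the macrophage receptor within each library. The log2 ratio of Csf3r to Csf1r reads was -3.94, -3.28 and -3.37 in Control and -4.29, -1.94 and -1.66 in the libraries labelled as treated. Replicate 1 labelled as treated held the lowest value and the other 2 the highest. The difference of means of 1.00 was within the spread between samples (two-sided exact permutation test, p = 0.4, adjusted p = 0.4 over the 3 ratios). It was 1.83 without replicate 1 labelled as treated and 0.52 without replicate 3.

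Signalling genes that act below these receptors were read as a list of 27. In edgeR 3 were called lower and none higher, and 7 were called lower with the 6 libraries kept. The median log2 fold change of the list was -0.09, close to that of all genes tested. Socs3, an inhibitor of cytokine receptor signalling that STAT3 induces and that restrains the G-CSF receptor, fell from 137 ± 31.6 CPM (SD, n = 2 distinct samples) to 17.8 ± 2.26 CPM (SD, n = 3). Its level was 114, 161 and 157 CPM in Control and 18.3, 15.3 and 19.7 CPM in the libraries labelled as treated, with a log2 fold change of -2.95 (edgeR adjusted p = 0.0119). The tyrosine kinase gene Src, whose product is required for bone resorption by osteoclasts, had a log2 fold change of -1.10 (edgeR adjusted p = 0.0356), and Shc1, an adaptor of growth factor receptors, one of -0.76 (adjusted p = 0.0377). Jak1 was the most abundant of the list and stood at 239 to 247 CPM in Control and 222 to 242 CPM in the libraries labelled as treated (edgeR adjusted p = 0.682).

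Myeloid transcription factors were read as a list of 14, with a median log2 fold change of -0.43 against 0.05 over all genes tested. Klf4 was the most abundant gene of the list. Spi1 encodes PU.1, a factor that binds the promoters of CSF receptor genes, and it was not called by edgeR (log2 fold change -0.90, adjusted p = 0.343).

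Other cell types that a disc sample could hold were read with further lists. Of 8 mast cell and eosinophil markers, cells that also carry the beta chain Csf2rb, none was called by edgeR, with a median log2 fold change of 1.18, and 1 was called higher with the 6 libraries kept. Their sum was 136, 18.3 and 17.8 CPM in Control and 61.0, 1414 and 1017 CPM in the libraries labelled as treated, with Prg2 the most abundant. In the latter most of the sum was Prg2, at 34.3, 924 and 716 CPM, and Epx, at 18.5, 453 and 271 CPM. Other markers went both ways. Tpsab1, Tpsb2 and Hdc had log2 fold changes of -0.40, -0.04 and -0.03, and Cpa3, Ms4a2 and Ccr3 had 0.44, 2.73 and 1.93. Csf2rb did not follow the order of the sum, being higher in each Control library. Of 6 dendritic cell markers tested 1 was called lower by edgeR (Ccr7, log2 fold change -2.44, adjusted p = 0.0322), the list's median was -0.19, and Itgax was the most abundant. The other markers tested went both ways. Zbtb46, Clec9a and Clec10a had log2 fold changes of 0.40, 0.42 and 0.19, and Itgax and Batf3 had -0.56 and -0.75.

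Among T cell markers, 2 of 7 were called lower by edgeR, Cd8a (log2 fold change -2.19, adjusted p = 0.0363) and Cd2 (log2 fold change -2.02, adjusted p = 0.0260), and the list had a median of -1.26. Erythroid, B cell, adipocyte and skeletal muscle markers had medians of 3.41, 1.26, 2.17 and 2.12, and none of the 8, 8, 7 and 6 genes tested was called. Of these lists, adipocyte markers had 3 genes called higher with the 6 libraries kept. Erythroid markers summed to 123, 40.1 and 37.5 CPM in Control and to 100.1, 1606 and 740 CPM in the libraries labelled as treated. The libraries with high Csf3r thus also had high sums of erythroid markers and of mast cell and eosinophil markers. Skeletal muscle and B cell sums were highest in the same libraries, replicates 2 and 3 labelled as treated. They were 10237 and 2512 CPM for muscle, against at most 1208 CPM elsewhere, and 75.2 and 119 CPM for B cells, against at most 57.2 CPM. None of 7 endothelial markers was called, with 3 called lower in the fit of 6 libraries and a median of -0.21. Disc markers had a median of 0.64, and 1 of 14 was called, Chad, a cartilage matrix protein, with a log2 fold change of 2.93 (edgeR adjusted p = 0.0454). The part of these cell types in the levels of the colony-stimulating factor genes was not tested.

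Genes whose levels followed a member most closely over the 5 distinct samples were found by the root mean square distance of centred log2 CPM among 13035 genes. For Csf1 they were Mrm3, Hivep3 and Ptpn1, at distances of 0.0421, 0.0425 and 0.0428, where the median gene was at 0.371. Those nearest to Csf1r were Nkd2, Atp6v0c and Xpr1, at 0.101, 0.107 and 0.132 against a median of 0.577. For Csf3r they were Ifit1bl, Kif2c and Cd300lf, at 0.130, 0.132 and 0.140 against 0.965. These distances are descriptions over 5 samples that share library and depth.

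Promoter sequence was read for the members present in the RefSeq table of the GRCr8 build, 4 of the 8 (Csf1r, Csf2, Csf2ra and Csf3r). Of these, Csf1r and Csf2 were among the 5 members that lay below Control in every library labelled as treated, and Csf2ra and Csf3r were not. In the 250 bases before the annotated start, both strands were searched for the letters of PU.1 (GAGGAAG), kappa B (GGNNNTTCC), AP-1 (TGANTCA) and C/EBP (TTNNGCAA). The PU.1 and kappa B letters share GGAA across strands and could overlap, but no matches overlapped in the members. PU.1 letters were found once in each receptor gene, Csf1r, Csf2ra and Csf3r, and in 10.2% of 33469 promoters of the same length. Kappa B letters occurred 2 times in Csf2 and once in Csf2ra, and in 15.4% of all promoters. AP-1 and C/EBP letters, present in 6.34% and 9.22% of all promoters, were not in these 4 windows. The stretches around the matches are shown, with the matches in capitals, so that the letters shared by the receptor genes can be read beside those of Csf2. The start of the match lay 230 bases before the start of Csf1r (a match on the opposite strand, printed as CTTCCTC on the strand of the gene), 140 and 123 before that of Csf2, 62 and 41 before that of Csf2ra, and 160 before that of Csf3r. A match describes letters and is no evidence of binding.
Csf1r (chr18:56834129-56834185, plus strand): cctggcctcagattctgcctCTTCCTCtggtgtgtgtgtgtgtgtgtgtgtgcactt
Csf2 (chr10:38889758-38889843, minus strand): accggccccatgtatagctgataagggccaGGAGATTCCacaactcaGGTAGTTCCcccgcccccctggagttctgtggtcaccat
Csf2ra (chr14:118122-118209, minus strand): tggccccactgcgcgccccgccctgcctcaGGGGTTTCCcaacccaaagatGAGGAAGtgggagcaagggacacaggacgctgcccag
Csf3r (chr5:143583030-143583096, plus strand): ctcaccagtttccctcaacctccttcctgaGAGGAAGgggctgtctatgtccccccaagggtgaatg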

How the data were processed

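Bulk RNA of rat discs was sequenced in 6 libraries. The authors deposited counts, whole numbers of reads per rat Ensembl gene, without normalization. The submitters' processing notes name FastQC, Trimmomatic, HISAT2, featureCounts, DESeq2 and the mouse build mm10, while the gene identifiers are those of rat. The use of strand and of reads shared by genes is not given in the sources used here. Members and gene lists were chosen with earlier results of these data known.

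R 4.3.3 and edgeR 4.0.16 were used (trimmed mean of M-values normalization, filterByExpr with a minimum count of 10, quasi-likelihood test), with Control replicates 2 and 3 summed, since their noise ratio was under 2. Ratios used a prior count of 2. Ratios per transcript length had been planned, but no lengths were used here, and read ratios were compared between groups instead. Means, SD and exact tests were taken over distinct samples. Intervals are 95% intervals. Likeness was measured among genes whose mean log2 CPM reached 1. The text names all 8 members and, of each list, its most abundant gene and, per direction, the 2 called genes that changed most. It also names Shc1, Acp5, Atp6v0d2, Cd14, Spi1, Adgre1, Itgam, Mpo, Cxcr2, Lcn2 and Ltf, chosen after their values were seen. Cd163, Zbtb46, Clec9a, Clec10a, Batf3, Epx, Tpsab1, Tpsb2, Hdc, Cpa3, Ms4a2 and Ccr3 were also chosen after their values were seen. Flt3lg, Thpo, Krt19, Trbc1 and Mylpf were not analysed here, and some results on listed genes are not reported here. Alternatives used DESeq2 1.42.0, limma 3.58.1, other normalizations and filters, the replicate number as a block, a fold threshold and each library left out. The fitting was tested on simulated data, but no result of that test is given here, and no value above rests on it.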

Additional observations from a re-analysis of the deposited data

How the results depend on the processing

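The number of genes called by edgeR was 575 (175 higher and 400 lower in the libraries labelled as treated). It was 2727 (1233 higher and 1494 lower) with the 6 libraries kept as separate samples, 2572 (1132 higher and 1440 lower) in DESeq2 and 3 with both near-identical Control libraries left out. With each library left out in turn it was 0 to 566. The number of members called was 0 and became 1 with the 6 libraries kept, 1 without a filter on low counts and 3 in DESeq2. With the near-identical pair or Control replicate 1 left out, 1 Control sample remains, which is assumed to vary like the other group.

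Csf3 passed with the 6 libraries kept (log2 fold change -6.51), without a filter (-6.34, adjusted p = 0.0420) and in DESeq2 (-6.53), and Csf1r (-0.98) and Csf2rb (-1.36) passed in DESeq2, and the cause was not tested. The log2 fold change of Csf3 ranged from -9.22 to -4.70 over all 15 alternatives. Il34 ranged from -0.17 to 0.049 with each library left out, and its sign turned without Control replicate 1 (0.049) and without replicate 2 labelled as treated (0.0092), where the cause was not tested either. Another 163 values were classed as the same. Fold changes of members kept their sign and side of the threshold, and numbers of genes or members called stayed equal or close. Ratios kept their sign only, since their exact permutation test cannot go under 0.05 with so few samples. No scaling shifted the median of all genes by over 0.1. Counts of Csf2 and Csf3 in the libraries labelled as treated were at most 2, so their fold changes rest on few reads.

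Libraries with the same replicate number had correlations of -0.326, -0.282 and -0.0756 between their deviations from the group means, so the numbers do not pair samples. Fitting the replicate number as block, over the 6 libraries, edgeR called 703 genes and 1 member, Csf3 (log2 fold change -6.61, adjusted p = 0.0392), and no other member's call changed.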
